A study of Homo sapiens with 15 samples.

Results

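The 9 genes described here write, guide, read or remove methyl marks on DNA and histones. They are DNMT1, DNMT3A, DNMT3B, UHRF1, TET1, TET2, TET3, MBD2 and EZH2. Every probe set whose single gene symbol is 1 of these names was taken, in all 15 arrays, which gave 19 probe sets for 9 of the 19775 genes measured. The cells were SKOV3ip1, a human line of epithelial ovarian cancer, and messenger RNA was read on Affymetrix U133 Plus 2.0 arrays, which carry several probe sets for many genes. The study compared cells with and without folate, and folate-fed cells with and without antibody. The group called no folate ("no MTF" in the titles) spent 7 days in folate-free medium and received no antibody. The group called folate ("5-MTF" in the titles) had, by the exposure field and the growth protocol, folic acid for 7 days, at 2 to 10 nM (a unit the labels write as nm), also without antibody. The labels do not explain MTF, so whether the titles and the protocol name the same compound is not settled. The groups called 004, 003 and MORAb003 had the same 7 days with folic acid and then 24 hours with the control antibody 004, the antibody 003 or the antibody MORAb003. MORAb-003 binds folate receptor alpha. Whether the names 003 and MORAb003 stand for 1 antibody is not stated in the labels, and both were kept apart. Each group was 1 cell growth of the same unmodified line and 1 RNA extract, hybridised as 3 aliquots. The p-values below therefore measure the spread between hybridisations and compare RNA extracts, not conditions. Arrays 1 and 2 of every extract belong to a first array day and array 3 to a second. These are not days of culture.

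DNA methylation is copied after replication by DNMT1, which UHRF1 brings to half-methylated sites, while DNMT3A and DNMT3B methylate sites that carried no mark. The TET enzymes oxidise methylcytosine as the first step of its removal, MBD2 binds methylated CpG and brings in a repressor complex, and EZH2 is the catalytic subunit of PRC2, which methylates histone H3. The DNMT enzymes and EZH2 take their methyl group from S-adenosylmethionine, which cells rebuild with a methyl group carried by folate. UHRF1, the TET enzymes and MBD2 do not use it, and in no case does a messenger RNA level measure enzyme activity or methylation.

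DNMT3B and MBD2 were the members that separated the extracts most clearly. Both were low in the no folate and 003 extracts and high in the folate and MORAb003 extracts, and so were they in the 004 extract once its array 1, which stood apart, was left out. Without that array TET2 was also lowest in those 2 extracts, with more spread, and TET1 was dim everywhere with its highest values in the MORAb003 extract. DNMT1, DNMT3A and EZH2 were not called in any of the 10 comparisons between extracts. None of the 10 member probe sets tested was called between the MORAb003 and folate extracts.

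Before the values, 3 features of the arrays need stating. Array 1 of the 004 extract correlated with the other two arrays of its extract at no more than 0.95 over all probe sets, while arrays of 1 extract otherwise correlated at 0.9932 to 0.9975. This array was the lowest of all 15 for DNMT1, UHRF1, TET2, TET3, MBD2 and EZH2 by their highest probe sets, so the calls below are given with it and without it. The actin control probe sets read more signal at the 3′ than at the 5′ end of the transcript by log2 4.09 ± 0.16 (SD, n = 3) without folate and by 4.02 ± 0.10 with 003. It was smallest with MORAb003 (2.42 ± 0.13) and intermediate with folate alone (3.24 ± 0.13) or 004 (3.46 ± 0.31). Shorter RNA widens this gap. Markers of epithelial and ovarian cancer cells reached the median of all probe sets for 12 of 12 genes, with list means of log2 10.99 to 11.22 by extract. Fibroblast and endothelial markers reached it for 7 of 10 genes (list means 6.98 to 7.09) and leukocyte markers for 3 of 8 (6.37 to 6.50), and PTPRC, which defines leukocytes, did not. Between the MORAb003 and 003 extracts, 1 of the 7 tested fibroblast and endothelial markers was called higher (ACTA2, 0.61), 1 lower (COL1A1, −0.59) and none of the 3 leukocyte markers, and their part in the results was not tested. The RNA came from whole cultures, so fewer cells with a transcript and less of it per cell cannot be told apart.

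A probe set was tested where the mean of at least 1 extract reached log2 6.60, the median of all probe sets. Of the 19 member probe sets, 10 passed, and they cover 8 genes. The 9 others were both probe sets of TET1, 3 of the 4 of MBD2, 2 of the 3 of TET2, 1 of the 3 of TET3 and 1 of the 3 of DNMT3A. All values are log2 expression as deposited. To be called, a difference had to reach 1.5-fold and, after Benjamini-Hochberg adjustment over the 30127 tested probe sets, a p under 0.05.

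**Figure D1:**
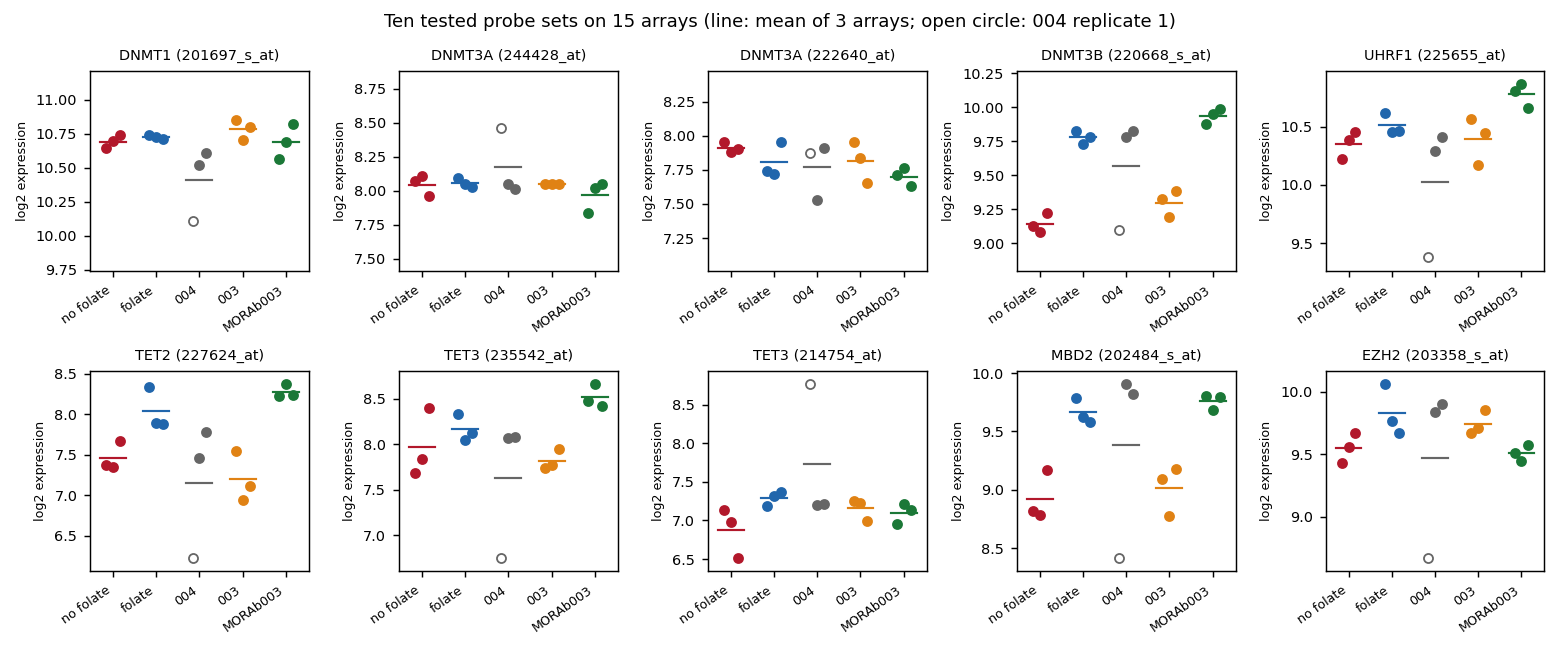
Log2 expression of the 10 tested member probe sets (vertical axes, each spanning at least 1.4 log2 units) on the 15 arrays, by extract (horizontal axes); points are arrays, lines are means of 3 arrays and the open circle is array 1 of the 004 extract. DNMT3B runs from 9.08 to 9.38 in the no folate and 003 extracts and from 9.73 to 9.98 in the folate and MORAb003 extracts, whereas DNMT1 stays between 10.52 and 10.85 apart from the open circle at 10.11.

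DNMT1, the maintenance methyltransferase (chromosome 19, 10133346 to 10194953 on GRCh38.p14), was read by 1 probe set, 201697_s_at. It read 10.64, 10.69 and 10.74 without folate, 10.74, 10.73 and 10.71 with folate alone and 10.85, 10.70 and 10.80 with 003. The MORAb003 arrays read 10.56, 10.69 and 10.82 and the 004 arrays 10.11, 10.52 and 10.61. The 004 arrays lay lowest and overlapped only the MORAb003 arrays, while the other 4 extracts overlapped. The no folate extract minus the folate extract was −0.04 with a 95% interval from −0.30 to 0.22 (adjusted p = 0.945). Of the 10 comparisons, DNMT1 was called in none, and the largest difference was 003 minus 004 at 0.37 (SE 0.12, adjusted p = 0.0836). Without array 1 of the 004 extract that difference was 0.22 (adjusted p = 0.0737).

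UHRF1, which recruits DNMT1 to half-methylated CpG (chromosome 19, 4903080 to 4962154), was read by 225655_at. Its arrays read 10.22, 10.39 and 10.45 without folate, 10.61, 10.45 and 10.47 with folate, and 10.56, 10.17 and 10.44 with 003. The 004 arrays read 9.38, 10.29 and 10.41, and the MORAb003 arrays 10.81, 10.86 and 10.66. All 3 MORAb003 arrays lay above the other 12, and the 004 arrays lay below the folate arrays. The 003 arrays overlapped those of the no folate, folate and 004 extracts, and the highest no folate array equalled the lowest folate array. UHRF1 was called higher in the MORAb003 than in the 004 extract (difference 0.75, SE 0.21, adjusted p = 0.0141). Without array 1 of the 004 extract the difference was 0.43 (adjusted p = 0.00652), below the 1.5-fold minimum, so the call ended, and without array 2 of the MORAb003 extract the adjusted p was 0.0528. After quantile normalization the difference was 0.42, also under 1.5-fold. Against the folate extract the MORAb003 extract was higher by 0.27 (adjusted p = 0.421, and 0.0437 without array 1 of the 004 extract).

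DNMT1, UHRF1 and EZH2 are textbook targets of E2F factors, so the promoter windows of all 9 members were searched for 4 E2F-type motifs, a search chosen after the levels had been seen. The windows, from RefSeq on GRCh38.p14, cover 250 bases before to 50 after a transcript start, and 21 windows were found for the 9 members. The motifs were TTTCCCGC, TTTGGCGC, TTTCGCGC and TTTGCCGC on both strands, which do not contain one another. Of the 9 members, 3 held a match, namely DNMT1, UHRF1 and EZH2. Counted by window, 4 of the 21 held a match, beside 3.31% of all 35116 windows. The 30-base sites are shown because, in the windows searched, these 3 genes held a match and the 6 other members did not. The number of windows differed between genes. The only DNMT3B window and all windows of TET3 and UHRF1 belong to internal starts. The bases before the first base of these genes were therefore not searched, and the UHRF1 matches lie in windows of internal starts. Capitals mark the match, each site is written 5′ to 3′ on the gene's strand, and the positions are chr19:10194937-10194966 (minus strand) for DNMT1, chr19:4909476-4909505 and chr19:4909973-4910002 (plus strand) for the UHRF1 sites, which lie in different windows, and chr7:148884272-148884301 (minus strand) for EZH2.
DNMT1: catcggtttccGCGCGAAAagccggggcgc
UHRF1, first site: gccgagttttcGCGGGAAAaaaatcagagc
UHRF1, second site: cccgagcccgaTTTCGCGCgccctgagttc
EZH2: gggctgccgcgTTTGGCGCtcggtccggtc
The match in DNMT1 and the first in UHRF1 are on the opposite strand from the gene, and the other two are on the gene's strand. A match is a description of letters and not a bound site. The 3 genes with a match did not share an order of extracts: without array 1 of the 004 extract, the MORAb003 extract was the highest of the 5 for UHRF1 and the lowest for EZH2.

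DNMT3A, a de novo methyltransferase (chromosome 2, 25227874 to 25342590), had 3 probe sets. Its probe set 222640_at read 7.96, 7.88 and 7.90 without folate, 7.74, 7.72 and 7.96 with folate, 7.96, 7.84 and 7.65 with 003, 7.88, 7.53 and 7.91 with 004 and 7.71, 7.76 and 7.63 with MORAb003. All 5 extracts overlapped apart from the no folate arrays, which lay above the MORAb003 arrays. The no folate extract minus the folate extract was 0.11 (95% interval −0.15 to 0.36, adjusted p = 0.737). Probe set 244428_at lay between 7.84 and 8.11 outside the 004 extract, whose arrays read 8.46, 8.05 and 8.01. It lists exactly the same value, 8.05, on 6 of the 15 arrays, all 3 of the 003 extract among them, so its spread of 0 there is not a precision of the measurement. The third probe set, 218457_s_at, was below the median level in every extract mean and ran from 6.04 to 6.73. No comparison called DNMT3A, with or without array 1 of the 004 extract.

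DNMT3B, the other de novo methyltransferase (chromosome 20, 32762385 to 32809356), was read by 220668_s_at. The no folate arrays read 9.13, 9.08 and 9.22 and the 003 arrays 9.33, 9.19 and 9.38. The folate arrays read 9.82, 9.73 and 9.78, the 004 arrays 9.10, 9.78 and 9.83, and the MORAb003 arrays 9.88, 9.95 and 9.98. Apart from array 1 of the 004 extract, every array of the no folate and 003 extracts lay below every array of the folate, 004 and MORAb003 extracts. The no folate extract was lower than the folate extract by a difference of −0.63 (SE 0.15, 1.55-fold, adjusted p = 0.0256). Leaving out any 1 of the 6 arrays compared ended that call (adjusted p = 0.0606 to 0.112), while leaving out array 1 of the 004 extract gave an adjusted p of 1.26e-05. The arrays of the first array day gave −0.67 and those of the second −0.56. After quantile normalization the difference was −0.57, under 1.5-fold (adjusted p = 1.02e-04).

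DNMT3B was called higher with MORAb003 than with 003, by 0.64 (SE 0.15, adjusted p = 0.00447), and the no folate extract was lower than the MORAb003 extract by a difference of −0.79 (adjusted p = 0.00127). The second call held without each single array. The first kept an adjusted p under 0.05 throughout, but without array 2 of the 003 extract the difference was 0.58, just under 1.5-fold, and after quantile normalization it was 0.44. Between the MORAb003 and folate extracts the difference was 0.16 (95% interval −0.17 to 0.48, adjusted p = 0.529), and between the 003 and folate extracts −0.48 (adjusted p = 0.0969, and 1.84e-04 without array 1 of the 004 extract). The no folate and 003 extracts, which held the low DNMT3B values, were also those with the largest actin gap. Within the 004 extract, array 1 had an actin gap of 3.82 and DNMT3B at 9.10, whereas arrays 2 and 3 had gaps of 3.28 and 3.27 and DNMT3B at 9.78 and 9.83. The part of the gap in these differences was not tested.

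**Figure D2:**
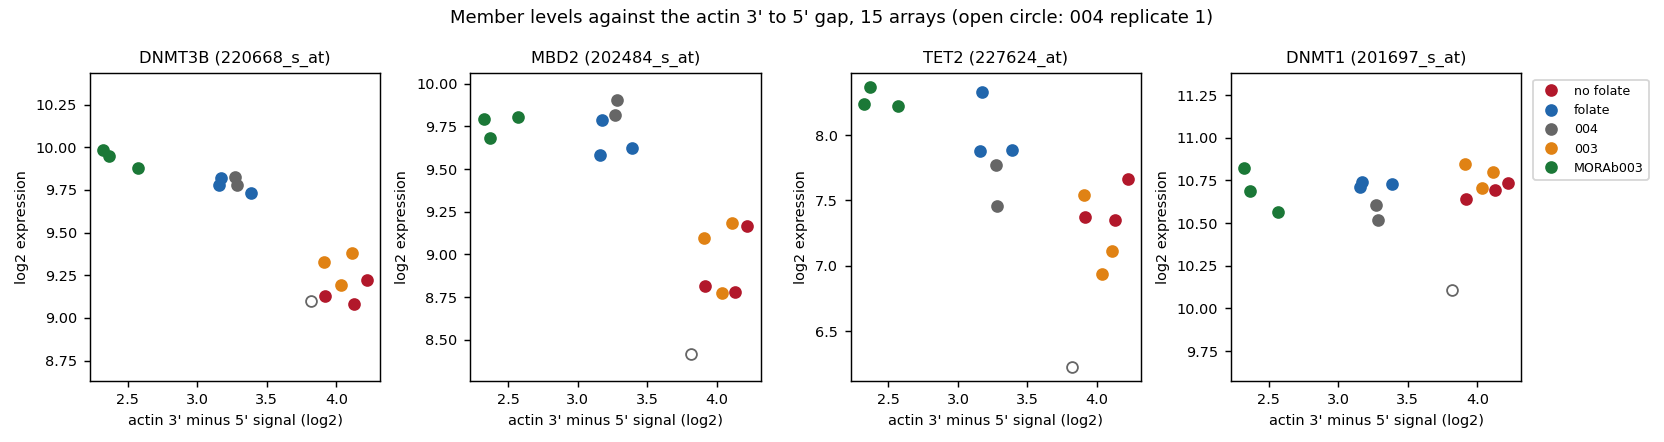
Log2 expression of DNMT3B, MBD2, TET2 and DNMT1 (vertical axes) against the actin 3′ minus 5′ signal in log2 units (horizontal axes) on the 15 arrays, coloured by extract, with array 1 of the 004 extract as the open circle. The 3 MORAb003 arrays lie at gaps of 2.32 to 2.57 and the no folate and 003 arrays at 3.91 to 4.22, where DNMT3B, MBD2 and TET2 are low and DNMT1 is not.

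TET1, an oxidase of methylcytosine (chromosome 10, 68560337 to 68694487), was dim on both probe sets. Probe set 228906_at read 5.44, 5.35 and 5.67 without folate, 5.50, 5.28 and 5.49 with folate, 5.43, 5.47 and 5.16 with 003, 5.20, 5.47 and 5.52 with 004 and 6.07, 5.98 and 6.05 with MORAb003. On probe set 214862_x_at the MORAb003 arrays read 5.51, 5.74 and 5.52 and the other 12 arrays 5.16 to 5.46. On both probe sets the MORAb003 arrays were above all the others, which overlapped. Neither reached the filter, so TET1 has no test in the main fit. When every probe set was tested, 228906_at was called higher with MORAb003 than with folate alone (difference 0.61, adjusted p = 0.00628), where 3.49% of 54613 probe sets were called higher. By mean level these probe sets stood at the percentiles 25 and 21 of all probe sets.

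TET2, a second oxidase of the family (chromosome 4, 105145875 to 105279803), had 1 probe set above the median, 227624_at. It read 7.37, 7.35 and 7.67 without folate, 8.33, 7.89 and 7.88 with folate, 7.54, 6.94 and 7.11 with 003, 6.23, 7.46 and 7.77 with 004 and 8.22, 8.37 and 8.24 with MORAb003. The MORAb003 arrays lay above all others but 1 folate array, and the 003 and no folate arrays lay below all folate arrays. TET2 was called higher with MORAb003 than with 003, by 1.08 (SE 0.30, 2.11-fold, adjusted p = 0.0102). Against the 004 extract it was higher by 1.12 (adjusted p = 0.012), and by 0.66 without array 1 of the 004 extract (adjusted p = 0.00524). The no folate extract was lower than the MORAb003 extract by a difference of −0.81 (adjusted p = 0.0467), a call that ended without any single array outside the 004 extract (adjusted p = 0.0504 to 0.125) and after quantile normalization (adjusted p = 0.0891). Between the no folate and folate extracts the difference was −0.57 (95% interval −1.21 to 0.07, adjusted p = 0.329), and 0.00843 was the adjusted p without array 1 of the 004 extract. The 003 and no folate extracts, with the largest actin gaps, had low TET2 means (7.20 and 7.46). The 004 mean was 7.15 with array 1, which had a gap of 3.82, and 7.62 without it. Arrays 2 and 3 of the 004 extract had gaps of 3.28 and 3.27. The part of the gap was not tested.

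The other probe sets of TET2 did not repeat that order. Probe set 1569385_s_at read 5.90 to 6.13 without folate and 5.63, 5.65 and 5.64 with MORAb003, the opposite direction to 227624_at, and the Pearson correlation of the pair over the 15 arrays was −0.62 (−0.60 without array 1 of the 004 extract). Probe set 235461_at lay between 4.84 and 5.43 with all extracts overlapping. Both were below the filter. The mean of the 3 probe sets placed TET2 higher in the MORAb003 than in the 003 extract by 0.22 and higher than in the 004 extract by 0.27.

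TET3, the remaining oxidase (chromosome 2, 73983631 to 74135498), had 2 tested probe sets that differed. Probe set 235542_at read 7.69, 7.84 and 8.40 without folate, 8.33, 8.04 and 8.12 with folate, 7.74, 7.77 and 7.94 with 003, 6.75, 8.07 and 8.08 with 004 and 8.48, 8.66 and 8.42 with MORAb003. The MORAb003 arrays were the 3 highest, though the third no folate array at 8.40 came close to the lowest of them at 8.42. TET3 was called higher on this probe set with MORAb003 than with 004, by 0.89 (SE 0.28, adjusted p = 0.0267), and the call ended without array 1 of the 004 extract (0.45, adjusted p = 0.03, under 1.5-fold) or without any 1 MORAb003 array (adjusted p = 0.0516 to 0.0868). After quantile normalization the adjusted p was 0.0513. The MORAb003 extract exceeded the 003 extract by 0.71 (adjusted p = 0.056, and 3.33e-04 without array 1 of the 004 extract).

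Probe set 214754_at of TET3 read 7.13, 6.98 and 6.52 without folate, 7.19, 7.31 and 7.36 with folate, 7.25, 7.23 and 7.00 with 003, 8.76, 7.20 and 7.21 with 004 and 6.95, 7.21 and 7.14 with MORAb003. Array 1 of the 004 extract was the highest of the 15 here and the lowest of the 15 on 235542_at. The MORAb003 minus 004 difference was −0.62 (adjusted p = 0.125), and −0.10 without that array. The correlation of both probe sets was −0.76 over 15 arrays and −0.25 over 14. With the mean of all 3 TET3 probe sets, the MORAb003 minus 004 difference was −0.01 (adjusted p = 0.876), so the direction of that call depends on the probe set. The dim probe set 1554641_a_at ran from 6.09 to 6.67.

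**Figure D3:**
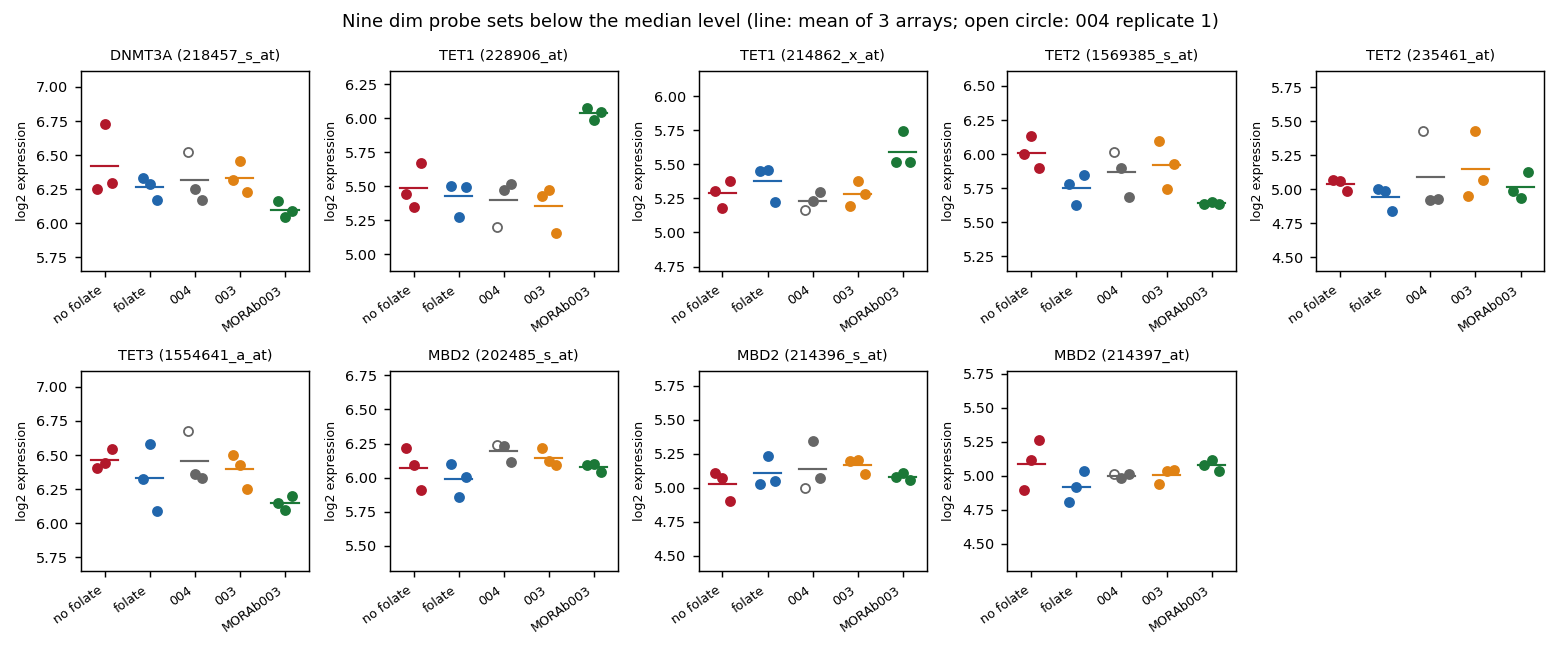
Log2 expression (vertical axes, each spanning at least 1.4 log2 units) of the 9 member probe sets that stayed below the median level of log2 6.60 in every extract mean, on the 15 arrays by extract (horizontal axes), with lines at means of 3 arrays and the open circle for array 1 of the 004 extract. The MORAb003 arrays of TET1 228906_at lie at 5.98 to 6.07, above 5.16 to 5.67 on the other 12 arrays, and the probe set 1569385_s_at of TET2 is lowest on average in the MORAb003 extract.

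MBD2, a reader of methylated CpG that belongs to a repressor complex (chromosome 18, 54151606 to 54224669), had 1 bright probe set of 4, 202484_s_at. It read 8.82, 8.78 and 9.17 without folate and 9.09, 8.78 and 9.18 with 003. The folate arrays read 9.79, 9.62 and 9.58, the 004 arrays 8.42, 9.90 and 9.82, and the MORAb003 arrays 9.81, 9.68 and 9.79. The split was that of DNMT3B: all no folate and 003 arrays lay below all others except array 1 of the 004 extract. MBD2 exceeded its 003 level with MORAb003 by 0.74, a called difference (SE 0.29, adjusted p = 0.0485). After quantile normalization the difference was 0.54, under 1.5-fold. The call also ended without any 1 of the 12 arrays outside the 004 extract (adjusted p = 0.0557 to 0.163), whereas without array 1 of the 004 extract the adjusted p was 2.62e-05. The no folate extract was lower than the MORAb003 extract by a difference of −0.84 (adjusted p = 0.0344), which did not pass without either of the first 2 no folate arrays or any 1 MORAb003 array (adjusted p = 0.0706 to 0.105).

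Between the no folate and folate extracts MBD2 differed by −0.74 (adjusted p = 0.161), and this was called only without array 1 of the 004 extract (adjusted p = 1.29e-04). In the same 14 arrays MBD2 was also called lower in the 003 than in the folate extract (−0.65, adjusted p = 4.96e-04), in the 003 than in the 004 extract (−0.84, adjusted p = 2.39e-04) and in the no folate than in the 004 extract (−0.94). The 3 dim MBD2 probe sets ran from 4.81 to 6.24 and their correlations with 202484_s_at lay between −0.31 and 0.20. With the mean of all 4 probe sets the MORAb003 minus 003 difference was 0.17 (adjusted p = 0.152). The no folate minus MORAb003 difference was −0.22 on that mean, and its adjusted p was no longer under 0.05. The low MBD2 extracts were again those with the largest actin gap.

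DNMT3B and MBD2 had the closest pattern of any pair of tested members, with a correlation of 0.96 over the 14 arrays without array 1 of the 004 extract, which share extracts and are not independent. The bases just before their RefSeq starts are printed because these genes moved together while their windows differ in CpG content. The 250 bases hold 3 CG pairs for DNMT3B and 21 for MBD2, marked in capitals. The position is chr20:32779602-32779851 (plus strand) for DNMT3B and chr18:54224670-54224919 (minus strand) for MBD2. The DNMT3B window lies inside the gene's span, upstream of an internal start and not of its first base. The MBD2 window lies upstream of the gene's first base, so the CG counts compare unlike starts.
DNMT3B: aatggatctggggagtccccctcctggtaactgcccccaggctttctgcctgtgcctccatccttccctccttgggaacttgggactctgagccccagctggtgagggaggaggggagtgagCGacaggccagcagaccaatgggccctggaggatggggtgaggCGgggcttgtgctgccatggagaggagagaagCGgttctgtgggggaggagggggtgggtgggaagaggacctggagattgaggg
MBD2: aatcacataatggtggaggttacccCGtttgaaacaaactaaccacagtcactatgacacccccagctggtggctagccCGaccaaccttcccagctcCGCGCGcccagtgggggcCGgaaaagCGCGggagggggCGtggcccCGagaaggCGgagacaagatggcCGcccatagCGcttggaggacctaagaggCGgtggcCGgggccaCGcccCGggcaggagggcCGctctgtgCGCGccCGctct
The whole 300-base windows hold 3 and 32 CG pairs, beside a median of 14 over all 35116 windows. No methylation was measured in these cells, so the windows show sequence only.

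EZH2, the histone methyltransferase of PRC2 (chromosome 7, 148807383 to 148884291), was read by 203358_s_at. Its arrays read 9.43, 9.56 and 9.67 without folate, 10.06, 9.77 and 9.67 with folate, 9.67, 9.71 and 9.86 with 003, 8.67, 9.84 and 9.90 with 004 and 9.51, 9.44 and 9.57 with MORAb003. Its MORAb003 arrays lay below the folate and 003 arrays and overlapped those without folate. EZH2 was called in none of the 10 comparisons. The MORAb003 minus folate difference was −0.32 (95% interval −0.84 to 0.20, adjusted p = 0.406), and the adjusted p was 0.0151 without array 1 of the 004 extract, still under 1.5-fold. Relative to the 004 extract the sign turned: it was 0.04 with that array and −0.36 (adjusted p = 0.015) without it. Without that array EZH2 had its lowest extract mean with MORAb003. There DNMT3B, UHRF1, both probe sets of TET1, 227624_at of TET2 and 235542_at of TET3 had their highest.

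**Figure D4:**
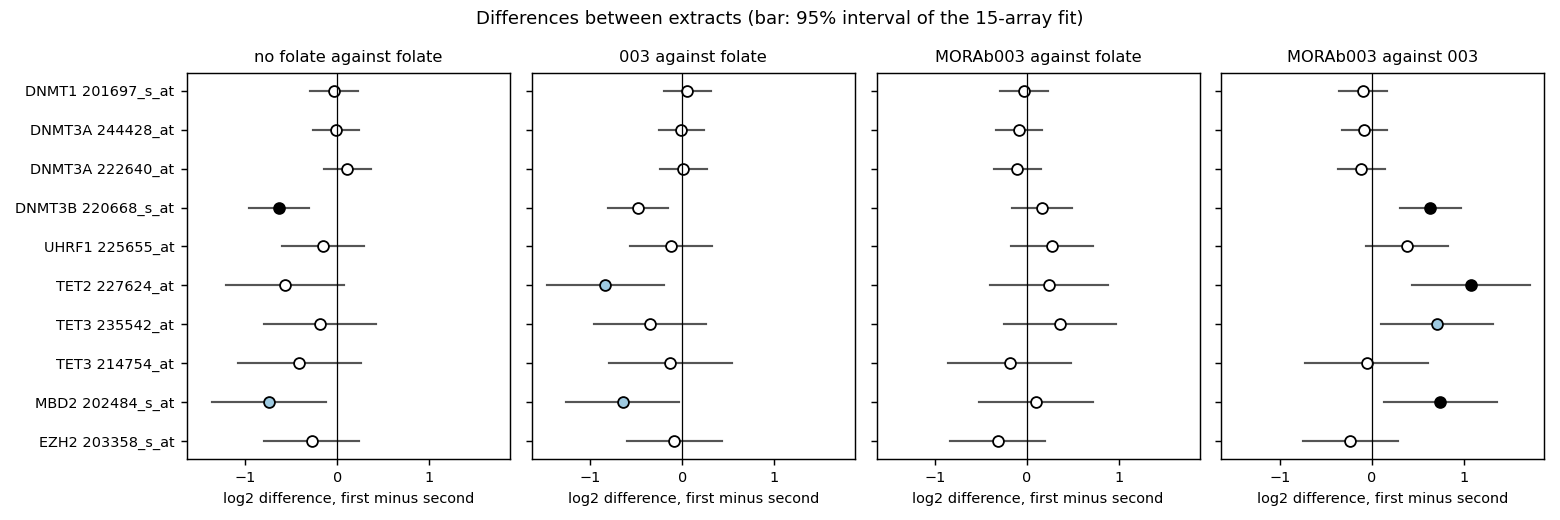
Log2 differences between extracts (horizontal axes, first named minus second) for the 10 tested member probe sets, with 95% intervals of the fit to all 15 arrays. Black points were called, blue points were called only without array 1 of the 004 extract and white points were not called; the MORAb003 against 003 comparison has 3 black points, DNMT3B, TET2 and MBD2, and the MORAb003 against folate comparison has none.

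Ordered by extract mean, without array 1 of the 004 extract, the DNMT3B levels ran from no folate (9.15 ± 0.07, SD, n = 3) and 003 (9.30 ± 0.10) to folate (9.78 ± 0.04), 004 (9.80, n = 2) and MORAb003 (9.94 ± 0.05). Of its 4 steps between neighbours, the one from 003 to folate had an adjusted p under 0.05 (1.84e-04), and the others ran from 0.209 to 1. For MBD2 the order was no folate (8.92 ± 0.21), 003 (9.02 ± 0.21), folate (9.66 ± 0.11), MORAb003 (9.76 ± 0.07) and 004 (9.86), again with a step from 003 to folate alone (adjusted p = 4.96e-04, others 0.502 to 0.66). UHRF1 had 004 and no folate at 10.35 (no folate ± 0.12), 003 at 10.39 ± 0.20, folate at 10.51 ± 0.09 and MORAb003 at 10.78 ± 0.11, and the last step had the lowest adjusted p (0.0437). For TET2 the order was 003 (7.20 ± 0.31), no folate (7.46 ± 0.18), 004 (7.62), folate (8.03 ± 0.26) and MORAb003 (8.27 ± 0.08), and no step between neighbours passed the test (adjusted p = 0.208 to 1). With array 1 of the 004 extract in the fit, none of these steps passed: the adjusted p was 0.0969 for DNMT3B and 0.219 for MBD2 from 003 to folate, and 0.421 for UHRF1 from folate to MORAb003.

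Between the no folate and folate extracts, the comparison of media, 1 of the 10 tested member probe sets was called lower (DNMT3B) and 0 higher, where 2.28% of all 30127 were called lower. Without array 1 of the 004 extract, 2 were called lower (DNMT3B and MBD2) beside 5% of all. At any fold, 5 then had an adjusted p under 0.05, all lower, beside 27.9% of all probe sets in either direction. The median of the 10 differences was −0.23, beside 0.02 over all tested probe sets. Of the 10 intervals, those of DNMT3B and MBD2 lay wholly below 0 and the other 8 reached both sides of it.

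Among the comparisons of an antibody with folate alone, the 003 extract against the folate extract gave 0 called members. Over all probe sets, 2.23% were called there in either direction. At an unadjusted p under 0.05 there were 3 members, beside 6270 of the 30127 tested probe sets. Without array 1 of the 004 extract, 2 were called lower (TET2 and MBD2), beside 5.94%. The MORAb003 extract against the folate extract gave 0 called members in both fits, beside 7.81% and, without that array, 11.1%. With all arrays, 0 members and 8683 probe sets had an unadjusted p under 0.05. Of all the probe sets called there, 77.6% were higher in the MORAb003 extract, and 66.3% after quantile normalization. The control antibody 004 against folate gave 0 called members beside 0% of all probe sets, and again 0 beside 0% without array 1. In that comparison 3 members and 2680 probe sets had an unadjusted p under 0.05, and 1129 probe sets did without array 1.

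Set against the control antibody, the 003 extract gave 0 called members beside 3.54% (83.8% of the calls higher, 64.5% after quantile normalization). An unadjusted p under 0.05 was found for 1 member and for 6606 probe sets. Without array 1 of the 004 extract MBD2 was called lower, beside 5.25% of all. The MORAb003 extract gave 3 members called higher (UHRF1, TET2 and TET3), beside 17.6% of all probe sets, and without array 1 only TET2, beside 10.5%. Of its calls over all probe sets 87.8% were higher, and 70.9% after quantile normalization. With so many probe sets called higher, 3 of 10 is not read as a feature of the members, and a difference from that share was not tested. Without array 1, 2 of the 3 calls ended (UHRF1 and TET3): their adjusted p stayed under 0.05 but the differences fell under 1.5-fold.

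Between the antibody extracts, MORAb003 against 003 gave 3 members called higher (DNMT3B, TET2 and MBD2) and 0 lower, beside 17.3% of all probe sets called higher. Without array 1 of the 004 extract TET3 235542_at joined them, beside 18.2%. The no folate extract against the 003 extract gave 0 called members, beside 0.139% and, without that array, 1.16%. There 0 members and 2382 probe sets had an unadjusted p under 0.05. Against the 004 extract the no folate extract gave 0 called members, beside 6.53% (85.8% of the calls higher, 70.8% after quantile normalization). An unadjusted p under 0.05 was found there for 3 members and for 7599 probe sets. Without array 1, DNMT3B and MBD2 were called lower, beside 4.73%. Against the MORAb003 extract 3 members were called lower in the no folate extract (DNMT3B, TET2 and MBD2) in both fits, beside 15.4% and 16.5%. These comparisons share extracts, so the same low values recur in several of them.

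Patterns over the arrays, chosen after the values had been seen, were counted over the whole array too. All 3 MORAb003 arrays lay above the other 12 in 5 of the 19 member probe sets (DNMT3B, UHRF1, both of TET1 and 235542_at of TET3), and in 12.6% of the 54613 probe sets that are not controls. All no folate and 003 arrays lay below all folate and MORAb003 arrays and 004 arrays 2 and 3 in 2 of the 10 tested member probe sets (DNMT3B and MBD2), and in 11.6% of all tested ones. Both arrangements were thus common on these arrays.

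The genes whose pattern was most like each member's were found by the Pearson correlation over the 14 arrays, among genes that passed the filter. For DNMT3B these were INTS8 (0.99), ADNP (0.99) and SGCE (0.99), and 990 genes exceeded 0.9. For MBD2 they were TMEM126A, SMARCA5 and INTS8 (0.97 each), with 539 genes over 0.9. TET2 was nearest to HDAC9, PLAGL1 and ZNF107 (0.95 to 0.96, 200 genes over 0.9) and TET3 to DPH6, RYBP and SFT2D2 (0.96, 305 genes). UHRF1 was nearest to ZBTB21, WDR35 and MICB (0.92 to 0.94, 41 genes) and EZH2 to MRPL9 and MSL3 (0.92 and 0.91), the 2 genes over 0.9, followed by MRM2. No gene exceeded 0.9 with DNMT1, whose nearest was PPP1R13L (0.79, then IGFN1 and MATK), or with DNMT3A, whose nearest was ELAPOR2 (0.89, then SEC24C and PIGO). Many genes thus exceeded 0.9 with DNMT3B and MBD2 and none with DNMT1 and DNMT3A. Over the same arrays the extract means spanned only 0.22 for DNMT1 and 0.09 for DNMT3A (244428_at), beside 0.79 for DNMT3B and 0.94 for MBD2. The pooled SD within extracts was 0.08 for DNMT1 and 0.07 for DNMT3A, so these genes had less pattern to share. Probe set 244428_at also lists the same value on 6 of the 15 arrays.

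Other genes of these pathways were counted with 1 probe set a gene over 14369 tested genes. Between the no folate and folate extracts 0.905% of all genes were called higher and 1.8% lower. None of the 9 tested partners of the DNA methyltransferases, 8 methyl-CpG readers, 10 PRC2 subunits, 29 other histone lysine methyltransferases, 20 histone lysine demethylases, 9 arginine methyltransferases, 20 G1/S genes or 4 germline genes was called with all arrays. Of 8 genes for removal of oxidised methylcytosine and supply of 2-oxoglutarate, IDH1, which makes that TET substrate, was lower (−0.67, adjusted p = 0.0245). Of 15 genes of the methyl donor cycle, MAT2B, the regulatory subunit of an S-adenosylmethionine synthase, was lower (−0.82, adjusted p = 0.0102), and of 11 imprinted genes SGCE was lower (−1.18, adjusted p = 0.00312). The list medians lay between −0.25 and 0.16, beside 0.01 over all genes. In the fit without array 1 of the 004 extract 1.33% of all genes were called higher and 5.09% lower, as were 10 more genes of the lists, 9 lower and 1 higher. Of these PRMT3 (−1.17), PRMT6 (−1.02) and PRMT9 (−0.75) were lower of the 9 arginine methyltransferases, RBBP4 and AEBP2 of the 10 PRC2 subunits, KDM3A and KDM6A of the 20 demethylases, ZBTB38 of the 8 readers and SLBP of the 20 G1/S genes. KMT2D, a methyltransferase of histone H3, was higher (0.68).

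The same lists between the MORAb003 and folate extracts, where 4.77% of genes were called higher and 1.81% lower, held 4 called genes besides TEX14. Of the PRC2 partners of EZH2, RBBP4, a histone-binding subunit, was higher (0.86, adjusted p = 0.0391) and PHF19, an accessory subunit, was lower (−1.18, adjusted p = 0.00244). KMT2E was lower among the other lysine methyltransferases (−0.64). CCNE2, a G1/S cyclin, was higher (1.03). The germline gene TEX14 passed the filter through the MORAb003 extract alone (mean 6.64, against 5.98 to 6.19 in the others), so its difference of 0.62 is not counted, and 17 of the 21 germline genes on the array stayed below the filter. No gene of the other 7 lists was called with all arrays. In the 14 arrays without array 1 of the 004 extract, where 8.23% of all genes were called higher and 1.96% lower, the reader ZBTB38 (0.73), PRMT6 (0.66), PRMT9 (0.59) and CDC6 (0.89) were also higher and CARM1 lower (−0.80). The list medians lay between −0.15 and 0.26, beside −0.04 over all genes.

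Far more companions differed between the MORAb003 and 003 extracts, as did genes at large (17.6% higher, 7.79% lower). Of the DNMT partners 4 of 9 were higher, namely UHRF2 (0.93), CDCA7 (0.80), HELLS (0.67) and PCNA (0.59), and 0 were lower, although the list's median was −0.23, beside −0.09 over all genes. Of the methyl-CpG readers ZBTB38 was higher (1.73) and MBD3 lower (−1.06), and of the oxidised methylcytosine list APEX1 (0.86) and IDH2 (0.85) were higher and XRCC1 lower (−0.83). PRC2 had 2 subunits higher, RBBP4 (1.64) and AEBP2 (0.93), and PHF19 lower (−1.05). Other lysine methyltransferases had 2 higher and 3 lower of 29, DOT1L among the latter (−0.75), and demethylases 5 higher and 1 lower of 20, with KDM3A (1.21) and KDM6B (−0.72) as examples. Arginine methyltransferases had PRMT3 (1.59), PRMT6 and PRMT9 higher and CARM1 (−1.26) and PRMT2 lower. The methyl donor cycle had 4 of 15 higher, MAT2B (1.10), AHCYL2, MTHFD2 and AHCYL1, and 0 lower. G1/S genes had 4 of 20 higher, with CCNE2 at 1.53 and CDC6 at 1.23, imprinted genes 5 of 11, with SGCE at 1.35, and germline genes 0 of 4. The list medians lay between −0.28 (arginine methyltransferases) and 0.40 (oxidised methylcytosine). In the fit without array 1 of the 004 extract, where 18.5% of all genes were called higher and 7.88% lower, the lysine methyltransferases had 5 higher and 4 lower and the methyl donor cycle 5 higher, and the counts of the other lists did not change. The actin gap was 2.42 and 4.02 in these extracts, and its part in these calls was not tested.

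**Figure D5:**
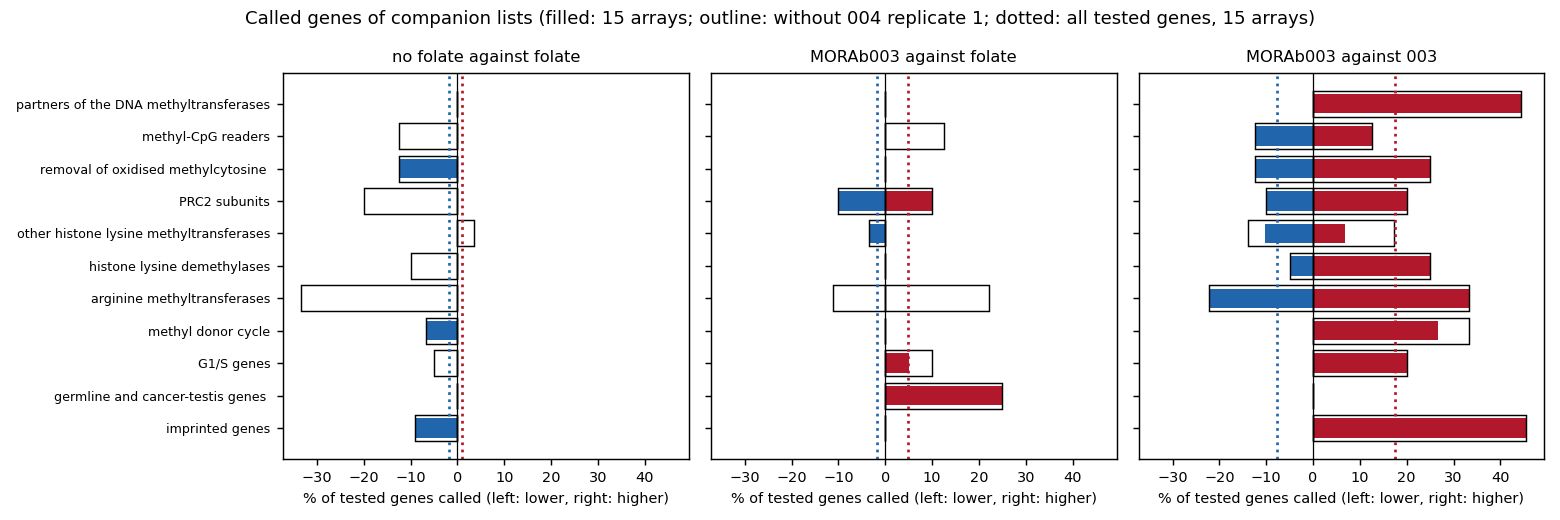
Share of tested genes of each companion list (vertical axis) called lower (left, blue) or higher (right, red) in 3 comparisons, in percent (horizontal axes); filled bars use all 15 arrays, outlines leave out array 1 of the 004 extract, and dotted lines mark the 15-array shares over all 14369 tested genes. Between the no folate and folate extracts 3 lists hold a filled bar, each lower, and more hold an outline, while between the MORAb003 and 003 extracts 10 of the 11 lists hold both. The germline bar for MORAb003 against folate is TEX14.

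Since each condition was a single culture, the 5 extract means were also fitted as 3 groups, with the 003 and MORAb003 cultures set against the folate and 004 cultures and the no folate culture as the third group. The grouping treats 003 and MORAb003 as alike, which the labels do not state. No member and no probe set of 30127 was called by limma in either contrast. At an unadjusted p under 0.05 there were 94 probe sets for the antibody contrast and 431 for the folate contrast, with 0 members in both. For DNMT3B, TET2 and MBD2 the 003 and MORAb003 cultures lay on opposite sides of the folate culture. Without the 003 culture, 1 member (TET2, adjusted p = 0.0354) was called in the antibody contrast. That arm then held the MORAb003 culture alone, so the spread came from the folate and 004 cultures, and the lone culture was assumed to vary like them.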

How the data were processed

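Messenger RNA of 5 SKOV3ip1 cultures was measured on 15 arrays, 3 per RNA extract. The authors deposited log2 expression per probe set, from 4.00 to 15.5 with array medians of 6.53 to 6.67. How the authors summarised and normalized these log2 values is not given in the sources used here. RNA was isolated with Trizol and biotinylated by the Affymetrix procedure, per the labels' protocols.

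The deposited values were used unchanged. Of 54675 probe sets, 62 controls were left out, and 41091 of the rest carried 1 symbol, 1801 several and 11721 none. Symbols were updated through RefSeq for 41037. Extracts were compared with limma 3.58.1 (lmFit, eBayes) in R 4.3.3 over 5 group means and 10 residual degrees of freedom, on the 30127 probe sets whose mean in at least 1 extract reached the median. The members and all gene lists were chosen with earlier results of these data known. All 9 members are named, with up to 4 called genes of a companion list and the 3 most similar genes per member. The fit was checked on simulated data. Precision is limited by 3 arrays per extract and 1 culture per condition. Replicate numbers gave no general pairing of the arrays: of 30 same-numbered pairs, 8 correlated over 0.1 (range −0.49 to 0.42). Number 3 was the second array day in every extract. Alternatives were quantile normalization, other filters and fold minimums, 1 probe set or the mean per gene, and blocks of replicate number or array day. Others were the first array day alone, the 6 arrays compared and leaving out each array or culture.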

Additional observations from a re-analysis of the deposited data

Results flagged for a closer look

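For 3 members the MORAb003 and 003 extracts, each an antibody culture with the same folic acid, differed from the same folate extract by unequal amounts, and the test of that inequality is the MORAb003 minus 003 difference itself. It was 0.64 for DNMT3B (adjusted p = 0.00447), 1.08 for TET2 (adjusted p = 0.0102) and 0.74 for MBD2 (adjusted p = 0.0485), in limma over 30127 probe sets. After quantile normalization it was 0.44 for DNMT3B and 0.54 for MBD2, both under 1.5-fold. On the called probe sets of these 3 genes all 3 MORAb003 arrays were above all 3 of the 003 arrays. Probe sets picked because they were called higher are likely to show this, so it adds no support. Its share over all probe sets was not counted. The 17.3% of all probe sets called higher in the same comparison and the actin gap of 2.42 against 4.02 stand beside these values, and their part was not tested.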

How the results depend on the processing

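Among refits of single called differences under the alternatives, 172 kept their direction and an adjusted p under 0.05, 57 kept the direction only and 1 reversed, TET3 in MORAb003 against 004 with the mean of all its probe sets (−0.0146). A 2-fold minimum left 0 called members in no folate against folate, 1 in MORAb003 against 004, 1 in MORAb003 against 003 and 0 in no folate against MORAb003. With only the 6 arrays compared the counts were 2 in no folate against folate, 2 in 003 against folate and 0 in MORAb003 against 004. The first array day alone gave 0 in no folate against folate, 1 in MORAb003 against 003 and 1 in no folate against MORAb003. Quantile normalization gave 1 in MORAb003 against 004, 1 in MORAb003 against 003 and 1 in no folate against 004. In no folate against folate it called MBD2 (adjusted p = 0.0325) in place of DNMT3B. No filter gave 1 in MORAb003 against folate (TET1). It put the adjusted p of MBD2 in MORAb003 against 003 at 0.0657. The causes of these shifts were not tested.

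Leaving out 1 array gave 0 to 2 called members in no folate against folate, 0 to 2 in 003 against folate, 0 to 1 in 003 against 004, 1 to 4 in MORAb003 against 004, 1 to 4 in MORAb003 against 003, 0 to 2 in no folate against 004 and 1 to 3 in no folate against MORAb003. In the fit of extract means, leaving out 1 culture gave 0 to 1 in the antibody contrast (TET2, without the 003 culture, which leaves that arm 1 culture). The replicate block, whose numbers gave no general pairing beyond the array day, gave 1 call in no folate against folate and 3 in MORAb003 against 004. It gave 3 in MORAb003 against 003 (TET3 in place of MBD2, adjusted p = 0.0529) and 2 in no folate against MORAb003 (TET2 at 0.0631). Single cultures and dim probe sets limit every statement on a condition.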
